A study of Homo sapiens with 6 samples.

Results

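BRD8 carries a bromodomain, a fold that reads acetylated lysines, and belongs to the NuA4/TIP60 complex, which acetylates histones and takes part in exchange of the histone variant H2A.Z. CTCF binds a long DNA motif through its zinc fingers and is known for insulators and the anchors of chromatin loops. The regions described here are those where BRD8 was listed in both of a pair of lung epithelial lines and CTCF was not.

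BRD8 was mapped by chromatin immunoprecipitation followed by sequencing (ChIP-seq) in the lung adenocarcinoma line Calu3 and the immortalised bronchial epithelial line 16HBE14o-, with an Active Motif antibody in both, and CTCF was mapped in Calu3 with a Millipore antibody. All cells were untreated and grown in DMEM with 10% serum. Each of these 3 experiments had 2 replicates, 6 samples in all, but the authors deposited 1 list of peaks per experiment, kept for their agreement between replicates by the irreproducible discovery rate (IDR). No value per replicate and no sequencing depth was at hand, so each list is 1 measurement, no comparison below has a replicate error or a test, and the 95% exact Clopper-Pearson intervals cover counting error only.

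Peaks of the 3 lists that shared at least 1 base were merged, and the regions were chosen by the calls themselves: a merged region was taken where it held a peak of both BRD8 lists and none of the CTCF list. This gave 563 of 21110 merged regions, or 2.67% (2.45 to 2.89%). They made up 4.16% of the 13543 regions with BRD8 in either line (3.83 to 4.51%) and 13.7% of the 4105 regions with BRD8 in both lines (12.7 to 14.8%). The other 3542 regions with BRD8 in both lines held a CTCF peak. Because CTCF and BRD8 calls chose the regions, these shares are a description. Absence of a CTCF peak from the list does not show that CTCF was absent, and CTCF in 16HBE14o- was not analysed here.

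BRD8 regions without CTCF were listed in both lines less often than those with CTCF. Over all 13543 BRD8 regions, 4105 were listed in both. BRD8 was listed in both lines at 563 of the 5117 BRD8 regions without CTCF (interval 10.2 to 11.9%), against 42.0% of the 8426 BRD8 regions with CTCF (41.0 to 43.1%). Taken line by line, the 563 were 23.4% of the 2401 Calu3 BRD8 regions without CTCF (21.8 to 25.2%) and 17.2% of the 3279 such regions of 16HBE14o- (15.9 to 18.5%). The calls that chose the regions also give these shares. BRD8 signal differed as well. In regions of Calu3 alone its median percentile in the list was 35.9 without CTCF and 56.2 with CTCF. In regions of 16HBE14o- alone it was 29.4 without CTCF and 51.3 with CTCF. The part of signal in the shares was not tested.

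Most of the 563 regions were simple. Both lines had 1 peak in 477 of them. The remaining 86 held more: 83 held 2 Calu3 peaks, 2 held 3 Calu3 peaks, and 1 held 2 peaks of 16HBE14o-. In all, the regions contained 650 Calu3 peaks and 564 16HBE14o- peaks. The usual peak was 476 bp wide in Calu3 and 224 bp wide in 16HBE14o-, and in 513 regions (91.1%, 88.5 to 93.3%) the 16HBE14o- peak lay wholly within a Calu3 peak. The median region was 476 bp wide, the width of 431 of them, and widths ran from 224 to 1048 bp, with a summed width of 285474 bp. Several Calu3 peaks in 1 region were found in 15.1% of the regions without CTCF (12.2 to 18.3%) and in 20.9% of those with CTCF (19.6 to 22.3%). A CTCF peak can join Calu3 peaks that do not overlap, so these shares are not on equal terms.

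By position, the calls at the margin of the choice were few. The smallest overlap between the peaks of the lines was 35 bp, and 3 regions had an overlap under 50 bp. Just outside, in 3 places a Calu3 region and a 16HBE14o- region without CTCF missed each other by 100 bp or less, at 44, 57 and 70 bp. Within 1 kb of such a 16HBE14o- region lay 23 Calu3 regions. On the side of CTCF, 4 regions had a CTCF peak within 50 bp that did not touch them, and 3 regions of both lines were left out for a CTCF peak that shared under 50 bp with a BRD8 peak. The choice also depends on signal. With the upper 50% of both BRD8 lists and the whole CTCF list, 129 of the 563 regions were met again. The cut itself sets this number, since 129 of the 563 had both percentiles in the upper 50%.

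The 5 regions nearest to CTCF lay 6 bp (20q13.13, chr20:48504953-48505428), 21 bp (1q21.3, chr1:152161001-152161476), 34 bp (5q13.1, chr5:68389374-68389849), 36 bp (14q11.2, chr14:23442727-23443202) and 87 bp (19q13.11, chr19:33667776-33668251) from a CTCF peak, on hg19. These neighbouring CTCF peaks stood at percentiles 18.6, 9.75, 4.63, 5.49 and 39.8 of the CTCF list, where 100 is the strongest signal. On the other side of the line stood 15q24.2 (chr15:75660103-75661171), where the CTCF peak shared 32 bp with a BRD8 peak, 19p13.3 (chr19:1383283-1384010) with 38 bp, 11p11.2 (chr11:47198500-47199416) with 49 bp, 20q13.32 (chr20:57606925-57607795) with 71 bp and 1q41 (chr1:220949990-220950465) with 72 bp. Their CTCF peaks were mixed, at percentiles 73.0, 30.7, 13.9, 46.9 and 76.1, in the same order.

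BRD8 signal at the 563 regions was close to the middle of either list, below that of the both-line regions with CTCF and above that of the regions of 1 line without CTCF. The strongest Calu3 peak of a region had a median signal of 31.8 in the authors' units (quartiles 26.5 and 41.0, lowest 12.5, highest 140.3), against a median of 42.0 (32.0 and 58.7) with CTCF and of 27.6 (23.8 and 33.5) in regions of Calu3 alone without CTCF. As percentiles of the Calu3 list the medians were 49.0 without CTCF, 71.6 with CTCF and 35.9 in Calu3 alone. The 16HBE14o- signal had a median of 27.8 (quartiles 23.7 and 33.7, lowest 8.88, highest 83.7), against 34.2 (27.7 and 43.2) with CTCF and 24.9 (22.0 and 29.6) in regions of 16HBE14o- alone without CTCF. As percentiles of the 16HBE14o- list they were 43.8 without CTCF, 68.0 with CTCF and 29.4 in 16HBE14o- alone. The quartile ranges of the classes overlapped in both lists, as the plot of percentile by class shows. Regions of 1 line with CTCF stood above the 563, with median percentiles of 56.2 in Calu3 alone and 51.3 in 16HBE14o- alone. A call in both lists itself depends on signal, so no test was made.

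**Figure D1:**
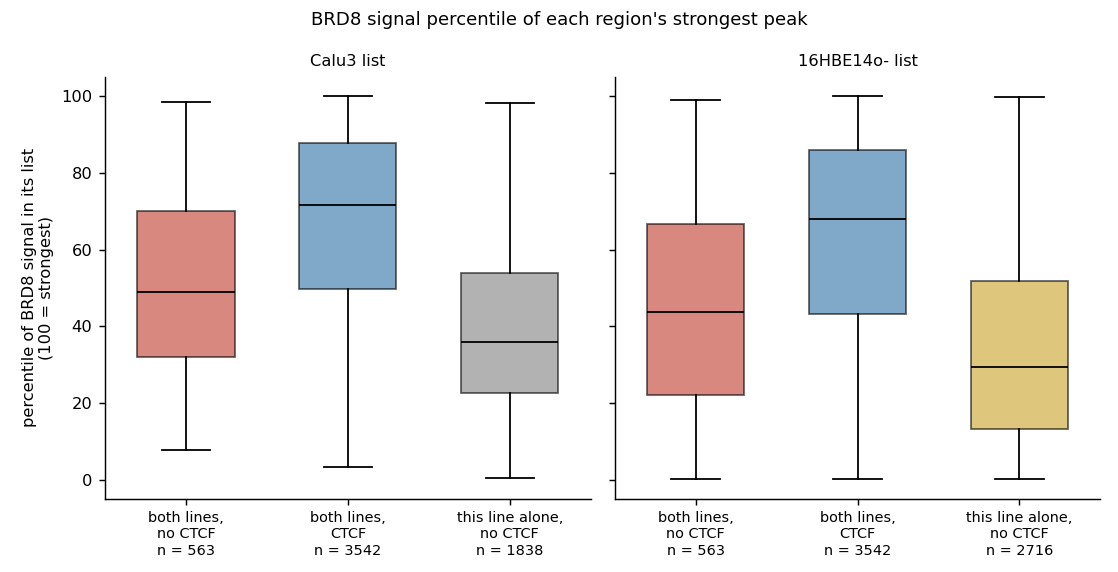
Percentile of BRD8 signal (y axis, 100 the strongest of its list) for the strongest peak of each region, in the Calu3 list (left panel) and the 16HBE14o- list (right panel). Boxes give quartiles and median, whiskers the lowest and highest region. Regions of both lines without CTCF have medians of 49.0 in Calu3 and 43.8 in 16HBE14o-, between those of regions with CTCF (71.6 and 68.0) and of regions of 1 line without CTCF (35.9 and 29.4).

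Ranked by the mean of their 2 percentiles and divided into 4 groups of equal size, the both-line regions lacked CTCF the more often the weaker they were. In the weakest group 282 of 1027 had no CTCF (27.5%, 24.7 to 30.3%), in the next 164 of 1026 (16.0%, 13.8 to 18.4%), then 83 of 1026 (8.09%, 6.49 to 9.93%), and in the strongest 34 of 1026 (3.31%, 2.31 to 4.60%). CTCF calls chose the regions, so this is a description. Of the 563 regions, 7 stood in the top 10% of both lists (1.24%, 0.501 to 2.54%), against 290 of those with CTCF (8.19%, 7.31 to 9.14%).

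The score column gives a second readout of the same peaks. In IDR output this column usually rises with the agreement between replicates and stops at 1000, although the headers do not say so here. A score of 1000 in Calu3 was held by 229 of the 563 regions, or 40.7% (36.6 to 44.9%), against 49.1% of all regions with Calu3 BRD8. In 16HBE14o- it was held by 252, or 44.8% (40.6 to 49.0%), against 51.3% of all regions with 16HBE14o- BRD8. Both shares lay above those of regions of 1 line without CTCF, 21.7% in Calu3 (19.8 to 23.6%) and 28.1% in 16HBE14o- (26.4 to 29.8%), and below those of both-line regions with CTCF, 66.2% in Calu3 (64.6 to 67.8%) and 69.8% in 16HBE14o- (68.3 to 71.3%). Both lines scored 1000 in 105 of the regions without CTCF (18.7%, 15.5 to 22.1%), Calu3 alone in 124, 16HBE14o- alone in 147 and neither in 187. Of the 3542 both-line regions with CTCF, 1747 scored 1000 in both lines (49.3%, 47.7 to 51.0%). The signal percentiles of the classes stood in the same order, and the part of signal in these shares was not tested.

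The strongest of the 563 regions ranked high in both lists. By mean percentile the first was 2q36.1 (chr2:223555376-223555618), with a signal of 115.7 and rank 221 of 9769 peaks in Calu3 and a signal of 66.5 and rank 228 of 9505 in 16HBE14o-. Its summits in the lines lay 5 bp apart and the nearest CTCF peak 128.5 kb away. The second, 6p22.3 (chr6:15691595-15691820), ranked 240 in Calu3 and 565 in 16HBE14o-, 300.7 kb from CTCF. The third, 1q21.1 (chr1:145542907-145543446), held 2 Calu3 peaks and ranked 399 in Calu3 and 562 in 16HBE14o-. All 3 had the full score of 1000 in both lines.

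The next were 1q32.1 (chr1:202088183-202088418, Calu3 rank 241, 16HBE14o- rank 791) and 1p21.3 (chr1:94801451-94801721, Calu3 rank 134, 16HBE14o- rank 923), which had the highest Calu3 signal of the 563, 140.3, and summits 1 bp apart. They were followed by 9q21.11 (chr9:71199412-71199648, Calu3 rank 381, 16HBE14o- rank 705), 20q11.23 (chr20:36685889-36686563, Calu3 rank 383, 16HBE14o- rank 730), 2q37.3 (chr2:239165225-239165836, Calu3 rank 439, 16HBE14o- rank 1231), 2q32.2 (chr2:190525879-190526135, Calu3 rank 443, 16HBE14o- rank 1311) and Xq22.3 (chrX:104166702-104167177, Calu3 rank 1264, 16HBE14o- rank 640). Over the 10 regions the distance to CTCF ran from 12.9 kb at 2q32.2 to 355.9 kb at Xq22.3. Of these 10 regions, 6 were narrower than 300 bp, a width that 16 of all 563 had. Such widths were not particular to the 563, since both-line regions with CTCF also went down to 224 bp.

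At the other end, the region of lowest mean percentile was 5q31.1 (chr5:132201748-132202223), with ranks of 8569 in Calu3 and 9318 in 16HBE14o- and scores of 717 in Calu3 and 585 in 16HBE14o-. Next came 21p11.1 (chr21:11144047-11144791), in a centromeric band, with ranks of 8272 in Calu3 and 9344 in 16HBE14o-, 12p13.31 (chr12:8696729-8697204), 6p22.1 (chr6:27486142-27486855) and 10q26.3 (chr10:135121146-135121621). All 5 scored under 1000 in both lines. At 6p22.1 the strongest summits of the lines were 364 bp apart, near the largest distance of all 563, 366 bp.

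Signal in one line said little about signal in the other. Over the 563 regions the percentiles had a Pearson r of 0.13 and a Spearman rho of 0.11, and over the 3542 regions with CTCF an r of 0.24 and a rho of 0.28. These are correlations across regions that share their libraries, given as a description. Both percentiles were in the upper 50% at 129 regions without CTCF (22.9%, 19.5 to 26.6%) and at 1897 with CTCF (53.6%, 51.9 to 55.2%), and both in the lower 50% at 179 without CTCF (31.8%, 28.0 to 35.8%) and 369 with CTCF (10.4%, 9.43 to 11.5%). Of the regions without CTCF 143 were in the upper 50% in Calu3 alone and 112 in 16HBE14o- alone. The percentiles differed by over 50 points at 80 regions (14.2%, 11.4 to 17.4%), close to the 12.8% of regions with CTCF (11.7 to 13.9%).

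**Figure D2:**
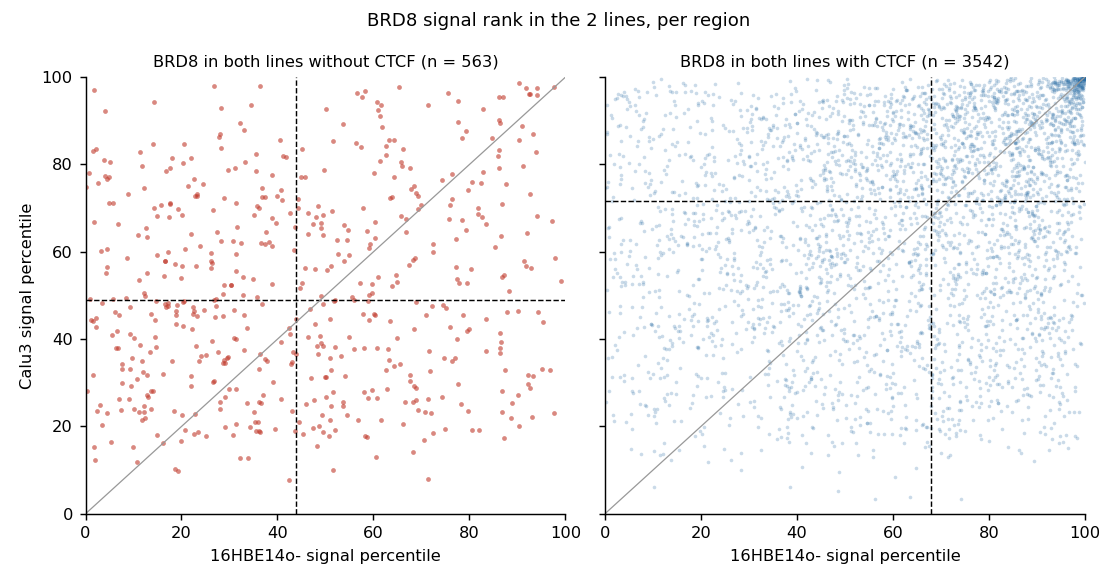
Signal percentile of the strongest BRD8 peak in Calu3 (y axis) against that in 16HBE14o- (x axis), 1 point per region, for the 563 regions without CTCF (left) and the 3542 with CTCF (right). Dashed lines give the medians and the grey line equal percentiles. The regions without CTCF are spread over the whole plane, while those with CTCF are densest in the corner where both percentiles are high.

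The 5 regions of largest difference in each direction were taken, so both directions appear by choice. In those higher in Calu3 the difference, Calu3 minus 16HBE14o-, was 79.9 points or more. In those higher in 16HBE14o- it reached -74.6 points, so the largest differences were towards Calu3. Highest in Calu3 relative to 16HBE14o- was 12q24.31 (chr12:125424169-125424644), at percentile 97.1 in Calu3 and 1.69 in 16HBE14o-, a difference of 95.4 points. After it came 6p22.3 (chr6:24283308-24283985, 92.3 in Calu3 and 4.05 in 16HBE14o-), 2q11.1 (chr2:95897286-95897819, 83.1 in Calu3 and 1.499 in 16HBE14o-), 9p13.3 (chr9:33852197-33852672, 83.5 in Calu3 and 2.15 in 16HBE14o-) and 2q37.1 (chr2:232579864-232580339, 94.2 in Calu3 and 14.4 in 16HBE14o-). Of these, 12q24.31 lay 708 bp and 2q37.1 lay 999 bp from a CTCF peak. Highest in 16HBE14o- were 20q13.33 (chr20:58838082-58838762), at percentile 22.98 in Calu3 and 97.6 in 16HBE14o-, 21q22.3 (chr21:44344005-44344480, 22.2 in Calu3 and 93.0 in 16HBE14o-), 14q31.3 (chr14:89506701-89507176, 20.2 in Calu3 and 90.4 in 16HBE14o-), 14q23.1 (chr14:61928489-61928964, 17.2 in Calu3 and 87.3 in 16HBE14o-) and 2q31.1 (chr2:176991719-176992194, 21.8 in Calu3 and 88.7 in 16HBE14o-). Over all 563 the median difference, Calu3 minus 16HBE14o-, was 7.25 points (quartiles -15.1 and 30.0).

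The difference varied with the chromosome arm, in regions without CTCF much as in regions with it. Of the 26 arms with at least 10 regions without CTCF, 16 had a positive median difference. It was largest on 19q (33.2 points, 20 regions), 3q (27.6, 15 regions) and 5q (25.5, 20 regions), and lowest on 4p (-19.0, 10 regions), 14q (-14.7, 35 regions) and 12q (-11.4, 16 regions). In the regions with CTCF the medians were 12.1 on 19q, 26.2 on 3q, 11.1 on 5q, -4.85 on 4p, -11.9 on 14q and 3.81 on 12q. Over the 26 arms the 2 medians had the same sign on 22, with a Pearson r of 0.69 and a Spearman rho of 0.69, given as a description of arms that share the same lists.

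**Figure D3:**
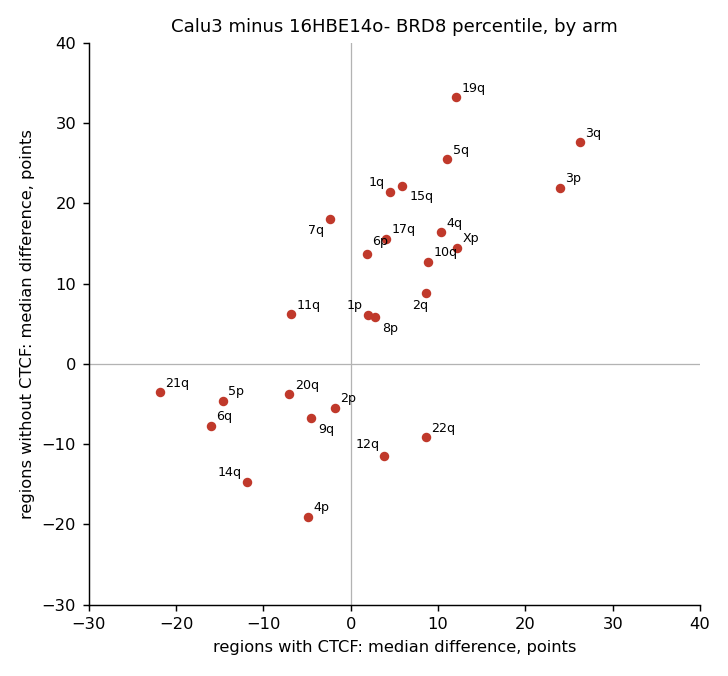
Median of the Calu3 minus 16HBE14o- BRD8 percentile, in points, for regions without CTCF (y axis) and with CTCF (x axis), 1 point for each of the 26 arms with at least 10 regions without CTCF. Arms 3q, 3p, 5q and 19q lie high on both axes, 14q lies low on both, and the signs differ on 7q, 11q, 12q and 22q.

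The summits of the lines lay close together at the 563 regions. The median distance between the strongest Calu3 and 16HBE14o- summits was 33 bp (quartiles 16 and 63 bp), against 29 bp (14 and 51 bp) in regions with CTCF. Within 50 bp lay 67.3% of them (63.3 to 71.2%), against 74.5% with CTCF (73.0 to 75.9%), and within 100 bp 89.0% (86.1 to 91.5%), against 91.9% (90.9 to 92.8%). In regions of 1 peak per line the medians were 33 bp over 477 regions without CTCF and 28 bp over 2788 with CTCF. Without CTCF the peaks of the lines must overlap, which bounds the distance, with a largest value of 366 bp. With CTCF a CTCF peak can join BRD8 peaks that do not overlap, and the largest distance was 658 bp.

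The nearest listed CTCF peak was usually well away. The median distance from the edge of a region was 33.6 kb (quartiles 10.1 and 87.9 kb). It was 24.4 kb (5.82 and 78.4 kb) for Calu3 BRD8 regions without CTCF in that line alone and 50.8 kb (13.7 and 132.9 kb) for such regions of 16HBE14o-. Within 1 kb of CTCF lay 25 of the 563 (4.44%, 2.89 to 6.49%), against 11.9% (10.4 to 13.4%) in Calu3 alone and 3.87% (3.17 to 4.66%) in 16HBE14o- alone. Within 10 kb lay 140, or 24.9% (21.3 to 28.7%), near the 24.6% of all BRD8 regions without CTCF, which include the 563. That background pools unlike classes, with 32.0% in Calu3 alone (29.9 to 34.2%) and 19.6% in 16HBE14o- alone (18.1 to 21.1%). The share of the 563 lay between them. Of the 25 regions within 1 kb, 17 had a CTCF peak of the lower 50% of its list as their neighbour, and the neighbour's median percentile was 39.8. It was 44.8 for the 140 regions within 10 kb, of which 61 had a neighbour of the upper 50%, and 47.1 for all 563. The strongest CTCF peak inside a both-line region with CTCF had a median percentile of 76.9. The region farthest from CTCF was 13q21.2 (chr13:61047691-61048166), 6.94 Mb away, with percentiles of 84.8 in Calu3 and 56.4 in 16HBE14o-.

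**Figure D4:**
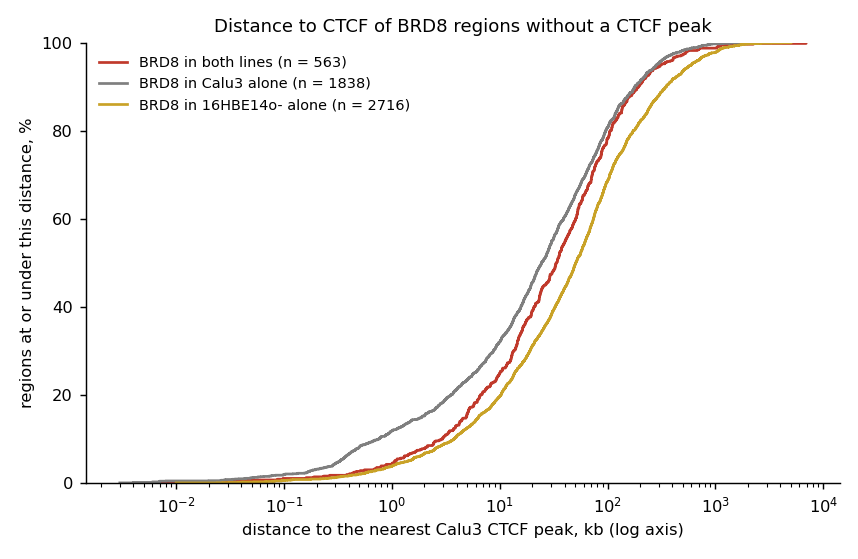
Cumulative share of BRD8 regions without a CTCF peak (y axis, %) by distance to the nearest Calu3 CTCF peak (x axis, kb, log scale), for regions of both lines, of Calu3 alone and of 16HBE14o- alone. The curve of the both-line regions, with a median of 33.6 kb, runs between those of Calu3 alone (24.4 kb) and 16HBE14o- alone (50.8 kb).

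The spacing of the 563 regions was near that of the other BRD8 regions without CTCF. The next BRD8 region of any class lay a median of 31.0 kb away, against 20.8 kb for both-line regions with CTCF, 29.6 kb for Calu3 alone and 36.1 kb for 16HBE14o- alone without CTCF. Another BRD8 region lay within 100 kb of 78.7% of the 563 (75.1 to 82.0%), against 87.1% of both-line regions with CTCF (85.9 to 88.2%), 77.7% of Calu3 alone (75.8 to 79.6%) and 74.7% of 16HBE14o- alone without CTCF (73.0 to 76.3%). The next both-line region without CTCF was a median of 865.9 kb away. Only 3 neighbouring pairs were within 10 kb of each other and 35 within 100 kb. The closest pair lay in Xp11.23, at chrX:47885105-47885667 and chrX:47886043-47886518, 376 bp apart. Then came 1q21.3 (chr1:152158065-152158540 and chr1:152161001-152161476, 2461 bp apart) and 17q11.2 (chr17:25930141-25930616 and chr17:25936592-25937067, 5976 bp apart).

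The 563 regions were scattered over 311 of 851 cytogenetic bands, with a single region in 180 of them, and over 41 chromosome arms. The band with most was 1q32.1, with 10 between 201012014 and 206837916 on chromosome 1, where 45 both-line regions had CTCF. Their Calu3 percentiles ran from 42.6 to 97.5 and their 16HBE14o- percentiles from 4.93 to 91.7. The Calu3 percentile was the higher in 9 of the 10 and in 332 of all 563 (59.0%, 54.8 to 63.1%). Among both-line regions with CTCF it was the higher in a similar share, 55.8% (54.1 to 57.4%). Band 19q13.33 held 8 and 20q13.13 held 7, with 32 both-line regions with CTCF in either. At 20q13.13 lay 1 of the 2 regions made of 3 Calu3 peaks (chr20:48125174-48126074). The other lay in the centromeric band 2p11.1 (chr2:91805806-91806853). The single region with 2 peaks of 16HBE14o- lay in 11q22.2 (chr11:102811437-102812134), at percentile 39.2 in Calu3 and 86.7 in 16HBE14o-.

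By Giemsa stain, where light bands are on the whole rich in genes and dark bands poor, 336 of the 563 regions (59.7%, 55.5 to 63.8%) lay in negative, light bands, against 60.0% of all merged regions and 64.0% of both-line regions with CTCF (62.4 to 65.6%). Light bands make up 42.4% of these 23 chromosomes. The darkest bands, 16.4% of the chromosomes, held 20 of the regions (3.55%, 2.18 to 5.43%), against 3.02% of both-line regions with CTCF (2.48 to 3.64%) and 5.64% of all merged regions (5.33 to 5.96%). Within 2 Mb of a chromosome end lay 16 (2.84%, 1.63 to 4.57%), against 6.04% of both-line regions with CTCF (5.28 to 6.88%) and 6.67% of all merged regions (6.34 to 7.01%). Centromeric bands held 5 (0.888%, 0.289 to 2.06%), with mean percentiles from 8.51 to 87.7, against 0.395% of both-line regions with CTCF (0.216 to 0.662%), 1.07% of regions of 16HBE14o- alone without CTCF (0.716 to 1.53%) and 0.464% of all merged regions (0.377 to 0.565%). Chromosome X held 20 of the regions (3.55%, 2.18 to 5.43%), against 1.04% of both-line regions with CTCF (0.737 to 1.44%) and 1.90% of all merged regions (1.72 to 2.09%). The share of regions of 16HBE14o- alone without CTCF was alike, 3.46% (2.81 to 4.22%), and that of Calu3 alone was 2.23% (1.61 to 3.01%).

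How often both-line BRD8 regions lacked CTCF differed widely between arms. By count, the most regions without CTCF were found on 1p (45), 14q (35), 1q (32) and 2p (29). Per Mb these arms had from 0.258 on 1q to 0.390 on 14q, against 0.788 on 20q and 0.613 on 19q. Their shares of both-line regions without CTCF ran from 16.3% on 1q to 19.5% on 2p. The intervals of all 4 arms include the 13.7% of all both-line regions. On the 39 arms with at least 20 both-line regions, the share without CTCF ran from 0% to 48.0%. It was highest on Xp, at 12 of 25 regions or 48.0% (27.8 to 68.7%), 21q, at 41.7% (22.1 to 63.4%), 4q, at 41.4% (23.5 to 61.1%) and 4p, at 34.5% (17.9 to 54.3%). It was lowest on 11p, where none of 20 both-line regions lacked CTCF (0 to 16.8%), 7p, at 5.19% (2.11 to 10.4%), 12p, at 5.26% (1.10 to 14.6%), 16p, at 5.41% (1.49 to 13.3%) and 16q, at 5.95% (1.96 to 13.3%). Within the 4 highest and within the 5 lowest arms the intervals overlap, so their order there is not fixed by the counts. Nor is either group set apart from the arm next to it in rank. The intervals of the 4 highest overlap that of 5p, at 28.9% (15.4 to 45.9%). Those of the 5 lowest overlap that of 17q, at 7.66% (4.60 to 11.8%). Some arms were apart from 1p, the arm with most regions without CTCF (interval 13.4 to 23.3%). The intervals of Xp and 4q lay above that of 1p, while those of 21q and 4p overlapped it. The intervals of 7p, 16p and 16q lay below that of 1p, while those of 11p and 12p overlapped it. On 11p BRD8 was listed at 208 regions in Calu3 and 31 in 16HBE14o-.

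The arms with a high share were poor in listed CTCF. The 9 arms with under 3 regions with CTCF per Mb had 95 of 300 both-line regions without CTCF (31.7%, 26.4 to 37.3%), the 25 arms with 3 to 10 had 13.0% (11.8 to 14.3%) and the 5 arms with 10 or more 9.62% (7.75 to 11.8%). Over the 39 arms the share and the number of regions with CTCF per Mb had a Spearman rho of -0.80 and a Pearson r of -0.61. This is a description, since both numbers rest on the same CTCF list.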

How the data were processed

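Per the file headers, 3 narrowPeak lists on hg19 were deposited, each made by the authors from 2 replicates by IDR, per the series' design text. The aligner, peak caller, control and IDR threshold are not given in the sources used here. Signal was taken as deposited and ranked within its list, as a percentile with 100 the strongest; signals were not compared between lists. The deposited score column runs from 540 to 1000. The score in the q-value column, below 0 for 46 peaks of 16HBE14o-, was not used, nor was the p-value column, which holds -1. The other deposited number is the offset of the summit.

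Peaks sharing 1 bp or more were merged, and a region was given the values of its strongest peak per list. Distances run from edge to edge, 1 bp meaning adjacent. Merging was tested on simulated data, and bedtools 2.31.1 gave the same 21110 regions and 563 members. Bands came from circlize 0.4.16, with chromosome lengths checked against GenomeInfoDb 1.38.1 for 23 chromosomes. Python 3.11.15, numpy 2.4.6, pandas 2.3.3, scipy 1.17.1 and matplotlib 3.10.9 were used.

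The regions, lists and measures were chosen with earlier results of these data known. Named regions are the 10 of highest and 5 of lowest mean percentile, the 5 nearest to CTCF, the 5 of largest difference in each direction and the 5 both-line regions of least CTCF overlap. Those on the 3 fullest bands and up to 5 of 3 or more peaks were also chosen, but only some of them are given one by one. The farthest from CTCF, the closest pairs, the regions of 3 Calu3 or 2 16HBE14o- peaks and the arms were chosen after their values were seen. Gene starts, motifs and sequences were not analysed here, since no genome or annotation of hg19 was used.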

Additional observations from a re-analysis of the deposited data

How the results depend on the processing

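Joining peaks within 100 bp, or by at least 50% of the shorter peak, setting peaks to 200 bp around the summit, requiring no CTCF within 1 kb and using autosomes only gave from 538 to 563 regions, 13.1% to 13.8% of both-line regions, with median percentiles of 48.7 to 49.0 in Calu3 and 43.7 to 44.4 in 16HBE14o-, summits 33 bp apart and CTCF at 32.6 to 36.0 kb. Set to 200 bp, 549 of the 563 regions were met again. The upper 50% of both BRD8 lists against the whole CTCF list left 130 regions, a share of 6.42% of both-line regions, median percentiles of 72.6 in Calu3 and 71.9 in 16HBE14o-, and a summit distance of 27.5 bp. The upper 50% of all 3 lists gave 384 regions, 129 of them among the 563, a share of 18.95%, percentiles of 74.0 in Calu3 and 71.0 in 16HBE14o-, summits 29.5 bp apart and CTCF at 61.0 kb; the shorter CTCF list adds sites by construction. Regions scoring 1000 in both lines, an alternative chosen after seeing the data, numbered 105, with a share of 5.67%, percentiles of 75.1 in Calu3 and 75.8 in 16HBE14o- and CTCF at 42.9 kb. Regions of 1 peak per line, also chosen after seeing the data, numbered 477. With the mean percentile of a region's peaks in place of the strongest, the median over the 563 was 46.3 in Calu3. In 16HBE14o- it stayed at 43.8. The signal alternatives move the percentiles by construction. The share of the 563 on 1p, 7.99%, ran from 6.67% to 8.81%. No replicate could be left out, since the lists are pooled. No paired analysis was possible because the lists carry no replicate. Alternatives for gene starts and motifs were not run.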
